A study of Mus musculus with 4 samples.

Results

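Social defeat in neuronal IL-1R1 knockouts was examined in a pair of pools of hippocampal nuclei, labelled RSD KO and Control KO (Stress-nIL-1R1-/- and Con-nIL-1R1-/- in the study). The 2 pools were taken by their labels from the 8 of the series, and nuclei with over 20% of their transcripts (unique molecular identifiers, UMIs) in mitochondrial genes were dropped. This left 6045 nuclei in RSD KO and 6511 in Control KO, 12556 of the 57350 nuclei deposited. Each pool joined the hippocampi of 3 male mice, and nuclei of the RSD pool were collected 14 h after repeated social defeat (RSD). RSD mice had a male CD-1 aggressor placed in their home cage, and Control mice were left undisturbed. Mice of both pools carried Cre under *Vglut2* (*Slc17a6*) and a floxed *Il1r1*, so that the gene is deleted in glutamatergic neurons and stays intact in endothelial cells and other cell types. The WT pools used for reference (Con-IL-1R1+/+ and Stress-IL-1R1+/+) came from mice without Cre, under the same Control and RSD conditions. The age of these mice is not given in the sources used here. Since each group was 1 pool, no test between groups was possible, and every interval below is a 95% counting interval, which leaves out the spread between mice.

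IL-1R1 is the receptor through which interleukin-1 acts, and with its partner IL-1RAP it passes the signal through MyD88 to NF-κB and MAP kinases. In the hippocampus it is known mainly from endothelial cells and dentate granule neurons. Social defeat raises circulating glucocorticoids, which act on the glucocorticoid receptor (*Nr3c1*) and the mineralocorticoid receptor (*Nr3c2*) of neurons and glia. *Fkbp5*, *Zbtb16* and *Per1* are well-known targets of the glucocorticoid receptor.

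Control KO was sequenced more deeply, with 58081835 UMIs and a median of 5012 UMIs per nucleus, against 24531457 UMIs and a median of 2580 in RSD KO. Levels are therefore given as CPM, the UMIs of a gene per 1000000 UMIs of its class. Every value of a gene that is not marked CPM, UMIs or % is a log2 ratio of RSD KO to Control KO, or, for the WT pair, of RSD WT to Control WT, with its counting interval in parentheses. Nuclei were also thinned to 1000 UMIs each, which left out 313 nuclei (4.81%) of Control KO and 881 (14.6%) of RSD KO. The 4 sublibraries of the experiment each held nuclei of both pools, with medians from 2888 to 8645 UMIs in Control KO and from 1464 to 4293 in RSD KO, and sublibraries 2 and 3 were the shallow ones in both. Sublibraries divide the nuclei of a pool and do not repeat the mice. The pools shared 0 barcodes.

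Nuclei of the 4 IL-1R1 pools were clustered together and named from marker genes, such as *Prox1* for dentate gyrus (DG) granule neurons, *Fibcd1* for CA1, *Nectin3* for CA2/3 and *Gad2* for inhibitory (INH) neurons. Names end in -like because they were rebuilt here. Clusters without enough markers keep a number and a leading gene.

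*Il1r1* (chr1:40264174-40356417, plus strand, mm39) was low in DG granule-like nuclei of both knockout pools. It had 74 UMIs among 1416 nuclei of Control KO, or 11.1 CPM (8.74 to 14.0), and 23 UMIs among 1053 nuclei of RSD KO, or 8.66 CPM (5.49 to 12.99). The WT pools had 62.2 CPM (54.7 to 70.3) in Control WT and 29.9 CPM (24.1 to 36.6) in RSD WT, both above the knockout pools. RSD WT thus lay below Control WT, with intervals that do not overlap. The paper reports the opposite direction, with *Il1r1* of DG neurons raised by stress. The cause of this disagreement, including a swap of the labels, was not tested. Knockout over WT gave a log2 ratio of -2.48 (-2.88 to -2.10) in the control pools and -1.79 (-2.51 to -1.12) in the RSD pools, the direction that the genotype labels give. Control KO over Control WT was -1.14 (-1.73 to -0.55) in CA2/3-like nuclei, and 0.24 (-1.41 to 2.02) in CA1-like nuclei. Thalamic excitatory-like nuclei went the other way, with 2.49 (1.32 to 3.49). That ratio rests on 9 UMIs in 23 nuclei of Control KO, against 87 UMIs in 1581 nuclei of Control WT. In the control pools a lower level in Control KO was not confined to the neurons in which the gene is deleted. Control KO over Control WT was also -1.88 (-3.25 to -0.67) in endothelial-like, -2.50 (-4.01 to -1.16) in microglia-like and -0.78 (-1.35 to -0.18) in INH-like nuclei. In oligodendrocyte-, oligodendrocyte precursor- and astrocyte-like nuclei this interval spanned 0. The endothelial-like value rests on 23 UMIs in 8 of 65 nuclei of Control WT and 8 UMIs in 6 of 36 nuclei of Control KO. The share of these nuclei with a UMI was 12.3% in Control WT and 16.7% in Control KO, at median depths of 1874 and 3004 UMIs. After thinning it was 6.12% (1.28 to 16.9) of 49 nuclei and 0% (0 to 9.74) of 36. RSD KO over RSD WT was -0.81 (-1.39 to -0.26) in endothelial-like nuclei, and its interval spanned 0 in microglia- and INH-like nuclei. *Il1r1* checks the genotype only, so which pool of each pair was the RSD pool, and with it the sign of every ratio here, rests on the labels. Between the knockout pools the log2 ratio of RSD KO to Control KO was -0.36 (-1.11 to 0.33), an interval that spans 0.

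**Figure D1:**
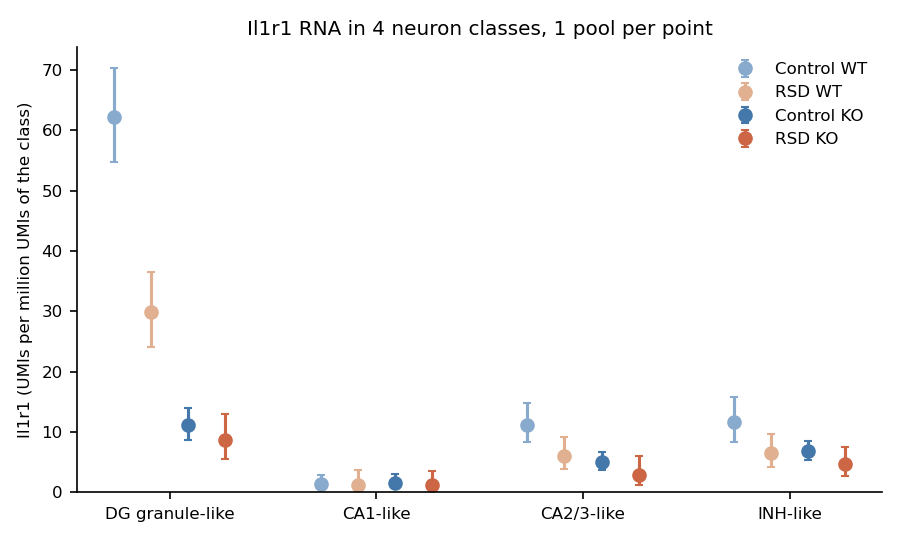
*Il1r1* level (y axis, CPM) by class in the 4 IL-1R1 pools. Each point is 1 pool and each bar its 95% Poisson counting interval. In DG granule-like nuclei both KO pools, at 11.1 and 8.66, lie below Control WT at 62.2 and RSD WT at 29.9.

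At least 1 *Il1r1* UMI was found in 4.38% (3.37 to 5.58) of DG granule-like nuclei in Control KO and 1.80% (1.09 to 2.80) in RSD KO, at median depths of 3423 and 1868 UMIs. After thinning, the shares were 1.44% (0.869 to 2.24) of 1320 nuclei and 0.827% (0.333 to 1.70) of 846, with overlapping intervals. Oligodendrocyte-like nuclei, given for comparison, had a UMI in 1.21% of 165 nuclei in Control KO and in 0 of 241 in RSD KO. Their median depths were 1792 and 1130 UMIs, and whether they express the gene was not tested. The 0 in RSD KO allows a share of up to 1.24%. The interval of the share in RSD KO granule nuclei reaches below that limit.

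In the other neurons *Il1r1* stood at 1.57 CPM in Control KO and 1.20 in RSD KO for CA1-like, at 5.11 and 2.93 for CA2/3-like and at 6.79 and 4.73 for INH-like nuclei. All 3 intervals of the log2 ratio span 0. Endothelial-like nuclei, in which this Cre should not act, had 8 UMIs in 6 of 36 nuclei of Control KO and 36 UMIs in 7 of 49 nuclei of RSD KO. That is 23.4 and 209 CPM, a log2 ratio of 3.16 (2.03 to 4.48), and the WT pools had 86.2 CPM in Control WT and 367 in RSD WT. The share of endothelial-like nuclei with a UMI was 16.7% in Control KO and 14.3% in RSD KO, so the higher sum in RSD KO lay in 7 nuclei. Median depths were 3004 and 2090 UMIs. After thinning the shares were 0% (0 to 9.74) of 36 nuclei in Control KO and 11.1% (3.11 to 26.1) of 36 in RSD KO.

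Among the class shares, hippocampal excitatory neurons made up less of RSD KO than of Control KO. Cortical excitatory-like nuclei and the unnamed clusters 5 and 10 made up more, and the unnamed clusters 9, 13 and 15 less. DG granule-like nuclei were 21.7% (20.8 to 22.8) of Control KO and 17.4% (16.5 to 18.4) of RSD KO, a log2 ratio of -0.32 (-0.44 to -0.20). CA1-like nuclei were 14.5% (13.6 to 15.3) and 11.6% (10.8 to 12.5), a log2 ratio of -0.31 (-0.46 to -0.17). The CA2/3-like share was 11.5% (10.7 to 12.3) in Control KO and 7.05% (6.41 to 7.72) in RSD KO, a log2 ratio of -0.71 (-0.88 to -0.53). Each of these 3 shares was lower in RSD KO in all 4 sublibraries, and the WT pair gave -0.02, -0.41 and 0.16. INH-like nuclei were at 13.3% and 12.1%, with a log2 ratio of -0.13 (-0.28 to 0.01), and of 0.004 in classes from a clustering of thinned nuclei.

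Cluster 5, an excitatory cluster led by *Igfn1*, made up 3.56% (3.13 to 4.04) of Control KO and 11.4% (10.6 to 12.2) of RSD KO, a log2 ratio of 1.68 (1.46 to 1.90). Cortical excitatory-like nuclei were at 4.58% (4.08 to 5.11) and 8.25% (7.57 to 8.98), and cluster 10, led by *Tshz2*, at 4.45% (3.97 to 4.98) and 6.93% (6.30 to 7.60). Thalamic excitatory-like nuclei, which lie outside the hippocampus, were 20.9% of Control WT and 1.38% of RSD WT, but 0.353% and 0.596% of the KO pools. In the WT pair cluster 5, cortical excitatory-like nuclei and cluster 10 were also larger in the RSD pool, at 0.807% and 10.3%, 1.35% and 6.57%, and 2.14% and 3.82%. Cerebellar granule-like nuclei, also from outside the hippocampus, were 34 nuclei of Control KO, or 0.522% (0.362 to 0.729), and 100 of RSD KO, or 1.65% (1.35 to 2.01). The part of tissue from outside the hippocampus in these shares was not tested. Cluster 9, led by *Gm6260* and *Fn1*, was at 5.76% and 4.05%. The share of cluster 16, led by *Kcnh8*, was 2.55% and 2.03%, a log2 ratio of -0.33 (-0.67 to 0.02). Cluster 15, led by *Gm29260* and the granule neuron gene *Prox1*, was at 3.82% and 1.54%, and cluster 13, led by the oligodendrocyte gene *Prr5l* but with its highest marker score for CA2/3, at 2.92% and 1.37%. Neither was counted with the named classes. Cluster 15 had median depths of 12999 UMIs in Control KO and 3656 in RSD KO, and 0 nuclei of both pools in classes from a clustering of thinned nuclei.

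**Figure D2:**
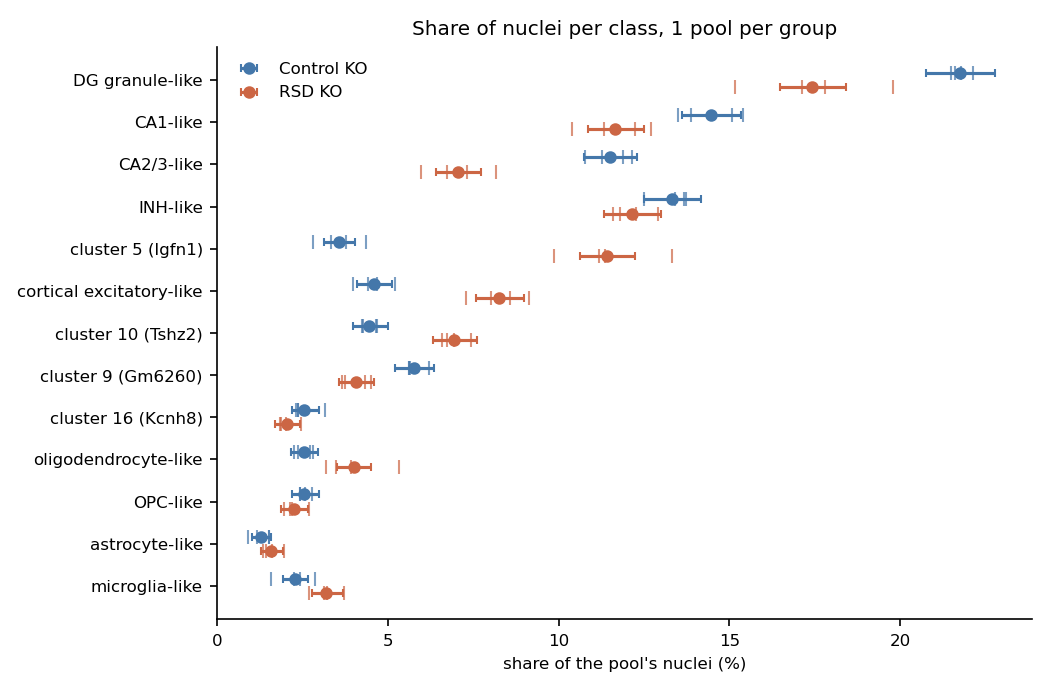
Share of nuclei (percent of the pool's nuclei) for the 13 compared classes in Control KO and RSD KO. Points are pools, thin ticks their 4 sublibraries, and bars 95% Clopper-Pearson counting intervals for 1 pool per group. Cluster 5 lies at 3.56% in Control KO and 11.4% in RSD KO, while CA2/3-like nuclei lie at 11.5% and 7.05%.

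Since the share of a class depends on all the others, the 3 hippocampal excitatory classes were also set against each other. Among them, the DG granule-like share was 45.6% (43.8 to 47.3) in Control KO and 48.2% (46.1 to 50.4) in RSD KO, and the CA1-like share was 30.3% and 32.2%. The CA2/3-like share was 24.1% (22.6 to 25.7) and 19.5% (17.9 to 21.2), a log2 ratio of -0.30 (-0.48 to -0.13). At full depth CA2/3-like nuclei were thus fewer within the hippocampal excitatory nuclei as well. In classes from a clustering of thinned nuclei CA2/3-like nuclei stood less apart. The log2 ratios of the shares of all nuclei there were -0.44 for DG granule-, -0.59 for CA1- and -0.61 for CA2/3-like nuclei, against -0.32, -0.31 and -0.71 at full depth. The share within the 3 classes after thinning is not given here. At full depth the CA2/3-like share of the WT pair went the other way, with 20.7% in Control WT and 24.8% in RSD WT, a log2 ratio of 0.26 (0.09 to 0.43). The difference between the genotypes was not tested, since each rests on a single pair of pools.

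Among glia, oligodendrocyte-like nuclei were at 2.53% (2.17 to 2.95) of Control KO and 3.99% (3.51 to 4.51) of RSD KO, and microglia-like nuclei at 2.27% (1.92 to 2.66) and 3.19% (2.76 to 3.67). The log2 ratios of the oligodendrocyte precursor (OPC)-like and astrocyte-like shares were -0.19 (-0.53 to 0.15) and 0.30 (-0.14 to 0.74), which both span 0.

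DG granule-like nuclei lay in 2 clusters of different depth. Cluster 1, with medians of 4380 UMIs in Control KO and 3164 in RSD KO, held 75.0% (72.7 to 77.2) of the class in Control KO and 48.8% (45.8 to 51.9) in RSD KO. Cluster 3, with medians of 1338 and 1183 UMIs, held the other 25.0% and 51.2%. After thinning to 1000 UMIs per nucleus the class formed a single cluster, so it is treated as 1 class.

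The glucocorticoid targets *Fkbp5* and *Zbtb16* were higher in RSD KO in nearly all cell types, the receptor genes *Nr3c1* and *Nr3c2* were lower in most, and other targets went both ways. *Fkbp5*, a co-chaperone of the glucocorticoid receptor (chr17:28618058-28737521, minus strand), was higher in all 10 classes in which it had at least 100 UMIs, with log2 ratios between 0.34 in INH-like and 2.74 in microglia-like nuclei. Granule nuclei had it at 88.6, 97.7, 112 and 88.8 CPM in sublibraries 1 to 4 of Control KO and at 132, 149.9, 125 and 144 CPM in RSD KO, without overlap. The log2 ratio was 0.57 (0.38 to 0.76), and 0.44 (0.25 to 0.63) in the WT pair. CA1-like nuclei had 65.4, 51.3, 52.4 and 60.5 CPM in Control KO and 89.5, 109, 112 and 103 CPM in RSD KO, again without overlap, a log2 ratio of 0.76 (0.52 to 1.00), with 0.66 in the WT pair. In CA2/3-like nuclei the ratio was 0.49 (0.27 to 0.71), with 0.08 (-0.12 to 0.29) in the WT pair, and the sublibraries overlapped. Sublibraries divide 1 pool per group, so values without overlap, here and below, leave out the spread between mice. For list members too they are no separate evidence, since the share of all genes that separate in this way is not given.

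*Zbtb16* (chr9:48563141-48748664, minus strand), a transcriptional repressor, was higher in 12 of 13 classes, with cluster 5 as the exception at -0.08. Granule nuclei had it at 643, 725, 704 and 673 CPM in Control KO and at 945, 1009, 965 and 877 CPM in RSD KO, so the lowest RSD KO value lay above the highest of Control KO. Its log2 ratio was 0.47 (0.40 to 0.54) in DG granule-like and 0.47 (0.40 to 0.54) in INH-like nuclei, and it reached 1.45 (1.18 to 1.73) in oligodendrocyte-like nuclei, from 349.6 to 956 CPM. WT oligodendrocyte-like nuclei gave 1.18 (0.97 to 1.40).

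*Per1*, a clock gene that glucocorticoids induce, was higher with 0.95 (0.69 to 1.21) in CA1-like and 0.61 (0.30 to 0.91) in CA2/3-like nuclei. Granule nuclei had *Per1* at -0.20 (-0.59 to 0.19), against 0.89 (0.47 to 1.31) in the WT pair, and whether the genotypes differed was not tested. *Errfi1*, a feedback inhibitor of the EGF receptor, was at 18.2 and 34.7 CPM in CA1-like nuclei, a log2 ratio of 0.93 (0.51 to 1.36). *Sgk1*, a kinase induced by glucocorticoids, was at -0.22, -0.23, -0.16 and 0.40 in DG granule-, CA1-, CA2/3- and INH-like nuclei.

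The glucocorticoid receptor gene *Nr3c1* stood at 154, 127, 139 and 171 CPM in CA1-like nuclei of Control KO and at 71.6, 73.6, 106 and 79.1 in RSD KO. No RSD KO value reached the lowest of Control KO, and the log2 ratio was -0.94 (-1.17 to -0.71). It was -1.09 (-1.49 to -0.71) in CA2/3-like, -0.45 (-0.69 to -0.23) in DG granule-like and -0.41 (-0.63 to -0.19) in INH-like nuclei, and the WT pair gave -0.70, -0.40, -0.75 and -0.37 in the 4 classes in this order. Thinning brought the CA2/3-like ratio to -0.35. *Nr3c2* was lower in 13 of 13 classes, with ratios between -0.07 in cluster 10 and -1.29 (-1.47 to -1.12) in cortical excitatory-like nuclei. Of the 16 genes on the glucocorticoid list, 8 were measured in each of the 4 hippocampal neuron classes, with list medians of -0.19 in DG granule-, 0.24 in CA1-, -0.01 in CA2/3- and 0.24 in INH-like nuclei. Of those 8, 2 were higher in DG granule-, 5 in CA1-, 4 in CA2/3- and 5 in INH-like nuclei, and *Nr3c1* in CA2/3-like nuclei was the single member past 2-fold. Over all genes with at least 100 UMIs the medians of these classes were 0.00, 0.02, 0.01 and 0.01.

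**Figure D3:**
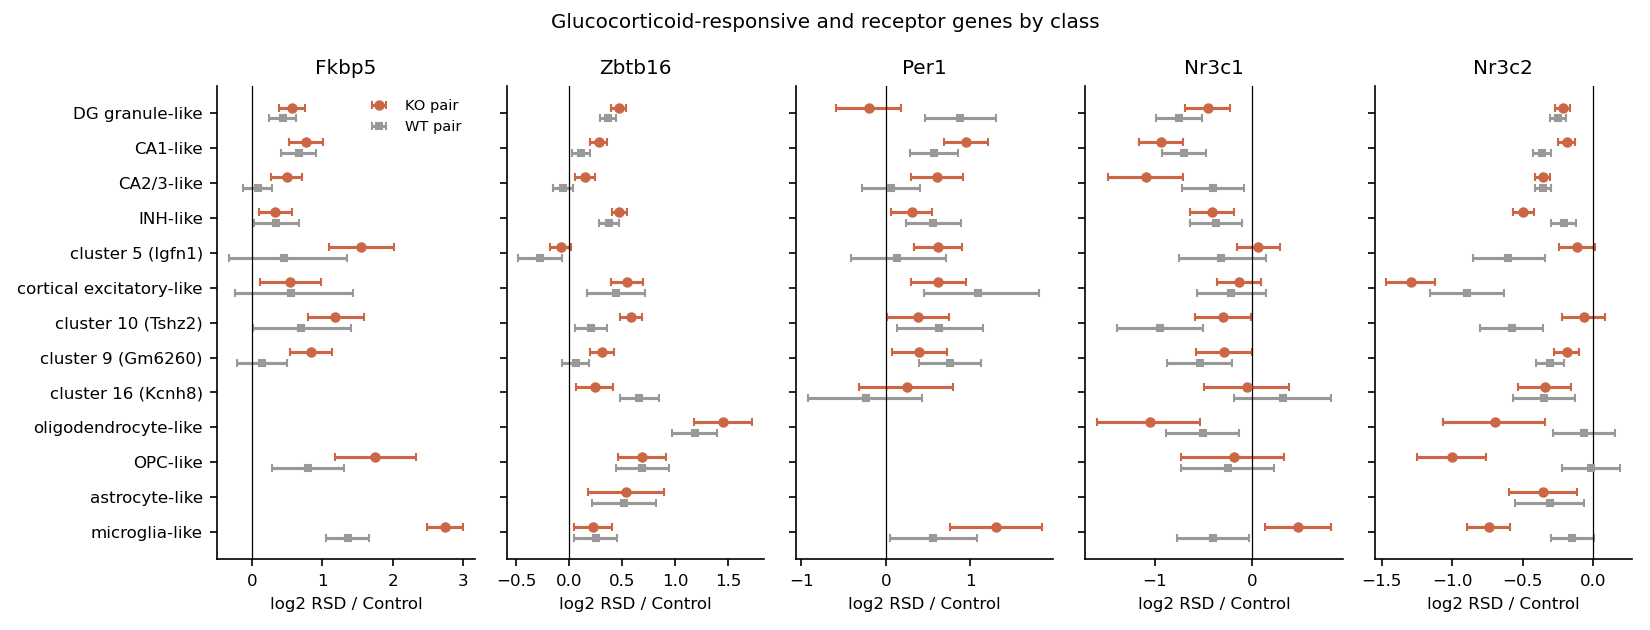
Log2 ratio of RSD to Control for glucocorticoid-related genes by class, for the KO pair and the WT pair, with 95% counting intervals as bars and a line at 0. *Fkbp5* of the KO pair lies above 0 in every class measured, up to 2.74 in microglia-like nuclei, and *Nr3c1* lies at -0.94 in CA1-like nuclei.

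Few genes differed by 2-fold in DG granule-like nuclei, with 7 of 7433 genes (0.0942%) at least 2-fold higher and 23 (0.309%) at least 2-fold lower in RSD KO. The genes tested are those with at least 100 UMIs over both pools. Genes named by rule, such as *Slc15a2*, were chosen for the same direction in every sublibrary and an interval far from no change. For them, here and below, values without overlap between sublibraries follow largely from that choice and are no separate evidence. The share of all genes that separate in this way is not given here. *Slc15a2*, a peptide transporter (chr16:36570475-36605334, minus strand), was at 16.5, 13.8, 22.3 and 23.3 CPM in the sublibraries of Control KO and at 45.8, 71.6, 43.6 and 61.9 in RSD KO. Every RSD KO value lay above every Control KO value, and the log2 ratio was 1.52 (1.17 to 1.87), while the WT pair gave -0.44 (-0.86 to -0.04). Control WT was at 34.9 CPM and RSD WT at 25.7, both between the KO pools at 19.4 and 55.7. *Dpysl5*, a collapsin response mediator protein of growing neurites, was at 28.9 and 60.2 CPM, a log2 ratio of 1.06 (0.75 to 1.37), and 0.84 in the WT pair. *Bc1* (chr7:144468199-144468374, plus strand), a noncoding RNA that represses translation in dendrites, had 1.64 (1.32 to 1.98), with -0.01 in the WT pair. The level of *Bc1* was 21.1 CPM in Control KO and 65.9 in RSD KO, against 51.8 in Control WT and 51.4 in RSD WT. *Bc1* was also higher in other neurons, with 1.31 in CA1-, 1.54 in CA2/3- and 1.31 in INH-like nuclei, where the WT pair gave 0.06, 0.12 and -0.16. *Cmss1* (chr16:57122363-57427253, minus strand), which overlaps *Filip1l* on the other strand, was at 0.82 (0.78 to 0.86) in DG granule- and 0.84 (0.81 to 0.88) in CA2/3-like nuclei, with -0.30 and -0.13 in the WT pair. In granule nuclei it was at 2172 CPM in Control KO and 3837 in RSD KO, against 3939 in Control WT and 3189 in RSD WT.

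Activity-regulated genes were sparse in granule nuclei, with 4 of 20 measured. *Nr4a3*, an orphan nuclear receptor induced by activity (chr4:48045153-48086447, plus strand), was at 34.7 CPM in Control KO and 13.9 in RSD KO, a log2 ratio of -1.32 (-1.86 to -0.81) with -0.10 in the WT pair. Sublibrary 4 of Control KO stood apart at 56.1 CPM, against 17.9, 26.7 and 24.7 in the other 3, and without sublibrary 4 the ratio was -0.43. Thinned nuclei gave -0.40. *Nr4a2* was at -0.73 (-1.38 to -0.12), and at 0.64 after thinning. *Sorcs3*, a sorting receptor, and *Homer1*, a postsynaptic scaffold, were at 0.13 and -0.03.

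Among the genes lower in granule nuclei were *Wipi1*, which takes part in autophagy, with a log2 ratio of -1.38 (-2.08 to -0.74), and the noncoding *Gm11867* (chr4:18407349-18891842, plus strand) with -2.29 (-3.46 to -1.31) from 110 and 9 UMIs. *Lhfpl3* (chr5:22951057-23480611, plus strand) was at 191, 210.1, 206 and 169 CPM in the sublibraries of Control KO and at 50.4, 73.8, 95.4 and 77.3 in RSD KO, without overlap. Its log2 ratio was -1.41 (-1.64 to -1.19) in granule nuclei, -1.504 (-1.75 to -1.26) in CA1-like, -1.35 (-1.58 to -1.12) in CA2/3-like and -1.61 (-2.01 to -1.23) in cluster 16 nuclei. The WT pair gave 0.14, 0.21, -0.12 and -0.16 in those classes. In granule nuclei Control KO stood apart at 188 CPM, against 70.4 in RSD KO, 72.7 in Control WT and 80.3 in RSD WT. *Gm11867* likewise had 16.5 CPM in Control KO, against 3.39 in RSD KO, 3.19 in Control WT and 4.82 in RSD WT. The part of the Control KO pool itself in these ratios was not tested. *Lhfpl3* is also on the list of 6 OPC markers, which together had 354 and 264 CPM in DG granule-like nuclei of Control KO and RSD KO, with 4 markers higher, 1 of them at 0 in Control KO, and 2 lower. All 13 genes whose positions are given here overlap other annotated genes, 12 of them on the opposite strand, and whether counting used strand is not given in the sources used here.

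CA1-like nuclei had 13 of 6800 genes (0.191%) at least 2-fold higher and 17 (0.25%) at least 2-fold lower in RSD KO. *Dusp5*, a nuclear phosphatase of ERK (chr19:53517532-53530862, plus strand), was at 15.7, 27.1, 22.5 and 12.6 CPM in Control KO and at 43.0, 73.6, 73.6 and 75.8 CPM in RSD KO. The groups did not overlap, and the log2 ratio was 1.86 (1.50 to 2.24), with 1.41 (1.03 to 1.79) in the WT pair. *Irs2*, an adaptor of the insulin receptor (chr8:11034681-11059499, minus strand), was at 16.7, 20.3, 23.7 and 13.6 CPM in Control KO and at 58.5, 45.7, 101 and 47.2 in RSD KO. Here too every RSD KO value was above every Control KO value, and the log2 ratio was 1.76 (1.38 to 2.14), with 0.40 (0.02 to 0.78) in the WT pair. *Acss1*, a mitochondrial acetyl-CoA synthetase, was at 51.8, 27.1, 38.7 and 58.0 CPM in Control KO and at 116, 86.3, 104 and 134 in RSD KO, a log2 ratio of 1.28 (1.04 to 1.53), and 0.82 in the WT pair.

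Of the 12 activity-regulated genes measured in CA1-like nuclei, 11 were higher and 1 lower in RSD KO, with a median log2 ratio of 0.31. Over all genes of the class with at least 100 UMIs, 53.5% were higher. *Pcsk1*, a prohormone convertase, was past 2-fold with 1.04 (0.61 to 1.47), and *Fosl2* and *Nr4a2* had 0.73 (0.21 to 1.25) and 0.61 (0.28 to 0.93). The WT pair gave 0.77, 0.67 and 0.37 for these 3 genes. *Sorcs3* and *Homer1* were at 0.03 and 0.23, and the immediate early genes *Arc*, *Npas4* and *Egr1* at 0.21, 0.21 and 0.00.

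*Apool* (chrX:111221021-111283446, plus strand), a protein of the mitochondrial inner membrane, was lower in CA1-like nuclei, at 35.6, 54.2, 42.4 and 40.8 CPM in Control KO and at 10.7, 10.2, 8.18 and 10.99 in RSD KO, without overlap. Its log2 ratio was -2.01 (-2.65 to -1.42), and 0.20 (-0.40 to 0.77) in the WT pair. Control WT was at 15.3 CPM and RSD WT at 17.5, both below every sublibrary of Control KO. *Plscr4*, of the phospholipid scramblase family, was at -1.96 (-2.83 to -1.18) and *Gm34466* at -1.56 (-2.36 to -0.84). The WT pair gave 0.18 and -1.20 for them.

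CA2/3-like nuclei had 17 of 8089 genes (0.21%) at least 2-fold higher and 33 (0.408%) at least 2-fold lower in RSD KO. *Gnb2*, a G protein beta subunit, was at 10.5, 11.7, 15.2 and 10.7 CPM in Control KO and 34.4, 28.8, 32.8 and 24.9 in RSD KO, without overlap, a log2 ratio of 1.39 (0.94 to 1.83), and 0.04 in the WT pair. *Egr3*, an immediate early transcription factor, was at 5.91, 8.44, 8.43 and 8.46 CPM in Control KO and at 12.3, 16.003, 20.9 and 17.3 in RSD KO. All 4 RSD KO values were the higher ones, and the log2 ratio was 1.06 (0.45 to 1.64), with -0.23 in the WT pair. Of the activity list, 8 of 11 measured members were higher here, with a median of 0.08, against 51.7% of all genes with at least 100 UMIs. *Rn18s-rs5*, a sequence related to ribosomal RNA, had 0.85 (0.82 to 0.87), with 0.72 in the WT pair.

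*Itgb8*, an integrin subunit that activates TGF-beta, was lower in CA2/3-like nuclei with -2.40 (-4.05 to -1.13) from 108 and 5 UMIs, with -0.35 in the WT pair. *Dbt*, a subunit of the branched-chain keto acid dehydrogenase, was at -1.85 (-3.01 to -0.88), and -0.48 after thinning. *Lix1* was at 48.3, 37.0, 29.5 and 45.3 CPM in Control KO and at 14.7, 22.4, 14.9 and 21.6 in RSD KO, a log2 ratio of -1.22 (-1.70 to -0.77), with -0.63 in the WT pair. No value of *Lix1* in RSD KO reached the lowest of Control KO.

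INH-like nuclei had 14 of 9081 genes (0.154%) at least 2-fold higher and 76 (0.837%) at least 2-fold lower in RSD KO. *Vip*, the neuropeptide of an interneuron subtype and a marker that helped to name the class, was at 12.6 and 38.9 CPM, a log2 ratio of 1.63 (1.27 to 1.98), with 0.10 in the WT pair. Sublibrary 4 of RSD KO was the highest at 53.1 CPM, and without sublibrary 4 the ratio was 0.98. *Cdh7*, a cadherin, was at 1.18 (0.93 to 1.43), with 0.33 in the WT pair. *Pcdh11x*, a protocadherin, was at 57.7, 53.8, 60.4 and 69.5 CPM in Control KO and 119, 172, 139 and 129 in RSD KO. These values did not overlap either, and the log2 ratio was 1.08 (0.91 to 1.25), with -0.07 in the WT pair. *Fosl2*, a subunit of AP-1, was at 7.55 and 17.5 CPM with 1.21 (0.71 to 1.71), whereas *Arc*, a gene of synaptic plasticity, was at 9.08 and 4.45 CPM with -1.03 (-1.89 to -0.26) and at -0.26 after thinning. The activity list had 7 of 11 measured members higher in INH-like nuclei, with a median of 0.24, against 51.4% of all genes with at least 100 UMIs.

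*Gabra5*, a subunit of extrasynaptic GABA-A receptors, was at 91.1, 84.8, 97.8 and 113 CPM in INH-like nuclei of Control KO and at 54.3, 54.5, 53.0 and 40.8 in RSD KO, without overlap. The log2 ratio was -1.03 (-1.27 to -0.80), with -0.36 (-0.65 to -0.08) in the WT pair and -0.12 after thinning. *Gm11867*, *Gm38413* and *6530403H02Rik* were lower with -2.64 (-3.88 to -1.62), -1.96 (-3.13 to -0.98) and -1.38 (-1.69 to -1.09). Thinned nuclei gave -0.61 for *6530403H02Rik*, 0.75 for *Cdh7* and 0.78 for *Bc1*. *Rnf182*, a ubiquitin ligase and a CA2/3 marker, was at -1.42 (-1.81 to -1.05). The 11 CA2/3 markers together had 845 and 546 CPM in INH-like nuclei of Control KO and RSD KO, with 10 of 11 lower. The share of nuclei among the highest doublet scores was 11.2% in Control KO and 8.31% in RSD KO for this class, and the part of mixed nuclei in these values was not tested.

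**Figure D4:**
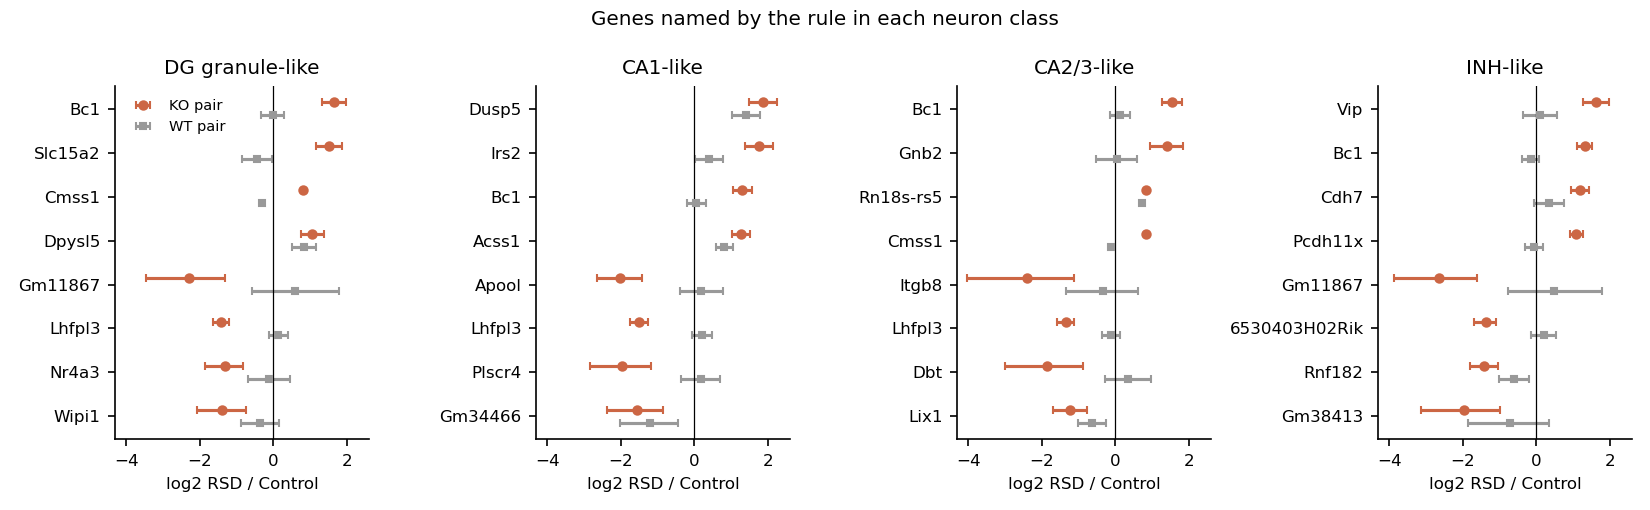
Log2 ratio of RSD to Control for the genes named by rule in DG granule-, CA1-, CA2/3- and INH-like nuclei, 4 higher and 4 lower per class, with the KO pair and the WT pair side by side and 95% counting intervals as bars. *Dusp5* in CA1-like nuclei lies above 0 in both pairs (1.86 and 1.41), whereas *Slc15a2* in DG granule-like nuclei lies at 1.52 in the KO pair and at -0.44 in the WT pair.

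Most of the measured chaperone genes were higher in RSD KO in hippocampal neurons, and also in the other neuronal classes that measured them. Heat shock proteins fold and refold other proteins and are induced when folding is disturbed. Of the 15 listed genes, 7 of 8 measured were higher in DG granule-like, 7 of 7 in CA1-like, 8 of 8 in CA2/3-like and 8 of 10 in INH-like nuclei, with medians of 0.38, 0.38, 0.59 and 0.38. Over all genes with at least 100 UMIs, 49.9% were higher in DG granule-, 53.5% in CA1-, 51.7% in CA2/3- and 51.4% in INH-like nuclei. Among these 4 classes *Hspa8* in CA1-like nuclei was the single member past 2-fold. Outside them, 6 of 7 measured were higher in cluster 5, 5 of 5 in cortical excitatory-like nuclei, 5 of 5 in cluster 10 and 6 of 6 in cluster 9. Their medians were 0.48, 0.66, 0.57 and 0.73, and over all genes 52.4%, 48.8%, 51.2% and 51.6% were higher. *Hsph1*, a nucleotide exchange factor of the HSP70 system, was at 37.7, 33.9, 36.2 and 34.8 CPM in CA1-like nuclei of Control KO and at 76.4, 71.1, 68.2 and 62.6 in RSD KO, without overlap. Its log2 ratio was 0.95 (0.65 to 1.25) in CA1-like, 0.94 (0.66 to 1.22) in CA2/3-like, 0.88 (0.58 to 1.16) in INH-like and 0.72 (0.34 to 1.10) in DG granule-like nuclei, and 1.39 (0.95 to 1.85) in cluster 5. In the WT pair *Hsph1* was at 0.11, -0.16, 0.20, 0.22 and -0.12 in these classes.

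*Hspa8*, the constitutive HSC70, was at 13.6, 8.71, 12.5 and 11.6 CPM in CA1-like nuclei of Control KO and at 31.0, 22.8, 24.5 and 29.7 in RSD KO. The values did not overlap, and the log2 ratio was 1.25 (0.75 to 1.75), with 0.17 (-0.33 to 0.65) in the WT pair. *Dnaja1*, a co-chaperone of HSP70, lay between 0.33 and 0.79 in the 8 neuronal classes that measured it. *Hsp90ab1* was uneven, with 0.54 in CA2/3-like and -0.23 in DG granule-like nuclei, and the WT pair gave 0.38 and 0.36. *Hsp90aa1* was at 0.04, 0.35, 0.47 and 0.24 in DG granule-, CA1-, CA2/3- and INH-like nuclei. As a measure of other housekeeping RNA, chosen after these values were seen, 89 ribosomal protein genes together had 312 and 343 CPM in CA1-like and 416 and 382 CPM in DG granule-like nuclei of Control KO and RSD KO.

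**Figure D5:**
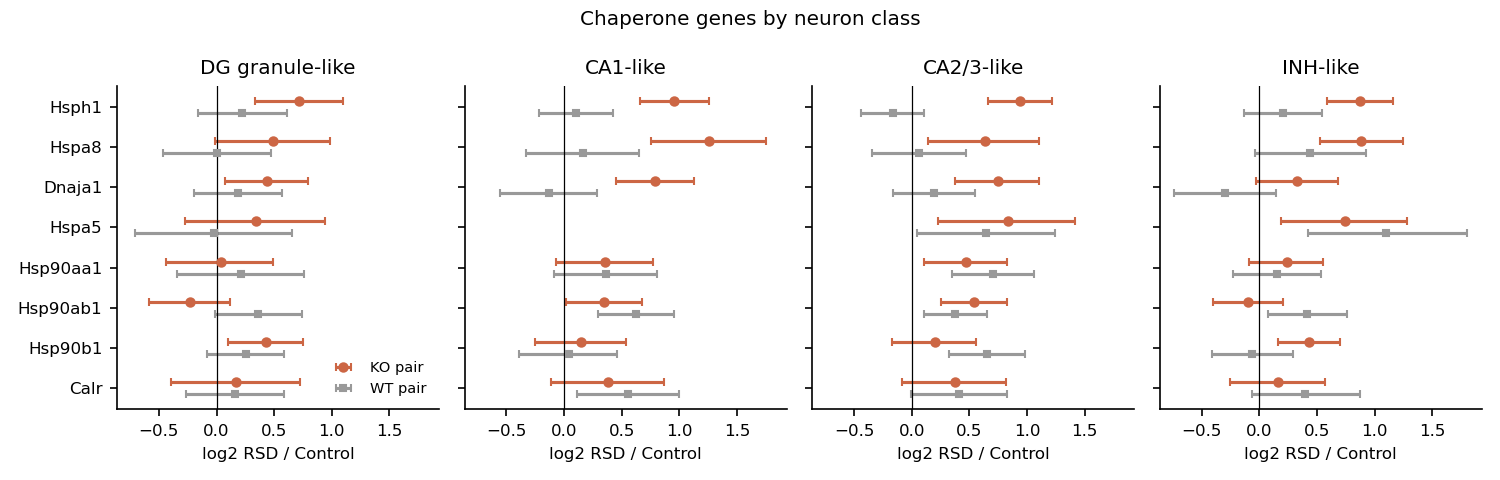
Log2 ratio of RSD to Control for chaperone genes in hippocampal neuron classes, with the KO pair and the WT pair side by side and 95% counting intervals as bars, for genes with at least 100 UMIs. *Hsph1* lies between 0.72 and 0.95 in the KO pair and between -0.16 and 0.22 in the WT pair.

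No gene of the IL-1 pathway with at least 100 UMIs differed by 2-fold in the 4 hippocampal neuron classes. *Il1r1* itself was below this minimum in each of them, with 74 and 23 UMIs in DG granule-like nuclei. Of 15 genes for IL-1 family receptors and ligands, 4 were measured in DG granule-like and 3 in CA1-, CA2/3- and INH-like nuclei, with medians of -0.07, -0.10, -0.19 and 0.01. *Il1rap*, the co-receptor of IL-1R1, was at 653 and 617 CPM in granule nuclei, a log2 ratio of -0.08 (-0.16 to 0.00). It was lower in 13 of 13 classes, with -1.06 (-1.67 to -0.50) in cluster 16 as the largest difference, where the WT pair gave 0.50. *Il1rapl1*, a synaptic member of the family, was at -0.07 in granule and 0.30 in INH-like nuclei. Of 26 genes of MyD88, NF-κB and MAP kinase signalling, 14 to 17 were measured per class and 0 differed by 2-fold, with medians of 0.03, 0.03, -0.01 and 0.06 in DG granule-, CA1-, CA2/3- and INH-like nuclei. *Mapk10* and *Mapk14*, both MAP kinases, were at 0.07 and 0.03 in granule nuclei and at 0.05 and -0.12 in CA1-like nuclei. *Nfkb1*, an NF-κB subunit, was at 0.12, 0.21, 0.07 and 0.18 in the 4 classes.

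CREB is a transcription factor that cAMP and calcium activate, and BDNF and its receptor TrkB (*Ntrk2*) act in the same plasticity pathways. Of 14 such genes, 10 to 12 were measured per hippocampal class and 0 differed by 2-fold, with medians of 0.01, 0.04, 0.03 and -0.04 in DG granule-, CA1-, CA2/3- and INH-like nuclei. *Ntrk2* was at 557 and 558 CPM in granule nuclei, and its log2 ratio was 0.21 in CA1-, 0.18 in CA2/3- and 0.28 in INH-like nuclei. *Ntrk3*, the receptor of neurotrophin-3, was at 0.07, -0.11, -0.08 and -0.38 in DG granule-, CA1-, CA2/3- and INH-like nuclei, and at -1.002 (-1.29 to -0.73) in cluster 16. *Bdnf* was at 0.40 (0.04 to 0.76) in CA1-like and -0.32 (-0.59 to -0.06) in DG granule-like nuclei.

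Most of the measured GABA-A receptor subunits were lower in the 3 hippocampal excitatory classes. Of 10 measured subunits, 7 were lower in DG granule-, 9 in CA1- and 8 in CA2/3-like nuclei, with medians of -0.17, -0.18 and -0.24, and 0 past 2-fold. Over all genes with at least 100 UMIs, 49.9% were higher in DG granule-, 53.5% in CA1- and 51.7% in CA2/3-like nuclei. Most were also lower outside these classes, with 9 of 10 lower in cortical excitatory-like nuclei, cluster 10 and cluster 9, and 7 of 10 in cluster 16. Their medians were -0.21, -0.26, -0.13 and -0.20, and over all genes with at least 100 UMIs 48.8%, 51.2%, 51.6% and 50.8% were higher. Cluster 5, also excitatory, had 6 of 10 higher, with a median of 0.10, against 52.4% higher over all its genes with at least 100 UMIs. *Gabrb1*, a beta subunit, was at 0.11, 0.02 and -0.04 in the 3 hippocampal excitatory classes. Of 25 glutamate receptor genes, 21 or 22 were measured per class and 0 differed by 2-fold, with medians between -0.07 in CA1- and -0.01 in DG granule-like nuclei. *Grin2a*, an NMDA receptor subunit, and *Gria1*, an AMPA receptor subunit, were at 0.03 and 0.01 in DG granule-, 0.00 and 0.00 in CA1- and -0.37 and -0.32 in INH-like nuclei. *Grin3a*, an NMDA receptor subunit that lowers calcium flow, was at 37.0 and 20.3 CPM in granule nuclei with -0.86 (-1.32 to -0.43).

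The 19 genes of synaptic adhesion and scaffolds had medians of 0.00, -0.12, -0.14 and -0.03 in DG granule-, CA1-, CA2/3- and INH-like nuclei and 0 members past 2-fold. *Dlg2*, a postsynaptic scaffold, was at -0.06, -0.15, -0.24 and -0.13. *Nrxn3*, a presynaptic adhesion protein, was at 0.27 in DG granule-, -0.12 in CA1- and 0.17 in INH-like nuclei. Of 10 nuclear noncoding RNAs, 8 were measured in each of the 4 classes and 0 differed by 2-fold, with medians between 0.07 in CA1- and 0.15 in CA2/3-like nuclei. *Malat1* lay between -0.22 and 0.16 and *Meg3* between -0.13 and 0.08. *Rn7sk*, a nuclear RNA that restrains transcription elongation, lay between 0.51 and 0.57 in these classes, and between 1.65 and 2.14 in the WT pair.

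*Arntl* (BMAL1), the activating partner of CLOCK in the circadian clock, was lower with -0.60 (-0.87 to -0.34) in DG granule-, -0.56 (-0.75 to -0.37) in CA1-, -0.56 (-0.81 to -0.32) in CA2/3- and -0.35 (-0.57 to -0.14) in INH-like nuclei. The WT pair gave -0.32, -0.23, -0.30 and -0.14. In CA1-like nuclei the repressors *Per1* and *Per3* were at 0.95 and 0.64, and *Bhlhe40*, another repressor, at -0.96 (-1.62 to -0.35). *Clock* was at 0.01, -0.04, 0.04 and 0.09 in the 4 classes. Of the 17 listed clock genes, 11 to 13 were measured per class and 0 differed by 2-fold, with medians between -0.13 in INH- and 0.11 in CA1-like nuclei. Their direction was not stable, since thinned nuclei gave medians of 0.19 in INH- and -0.29 in CA2/3-like nuclei.

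None of the 13 mitochondrial transcripts and 5 blood genes listed reached 100 UMIs in a compared class. mt-Nd1 was at 3.01 and 3.01 CPM in granule nuclei of Control KO and RSD KO. All mitochondrial genes together, however, held 0.1203% of the UMIs of Control KO and 0.2265% of those of RSD KO. This share was higher in RSD KO in every compared class. It was 0.1215% and 0.1646% in DG granule-, 0.1024% and 0.1796% in INH- and 0.883% and 1.71% in astrocyte-like nuclei.

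Cluster 5, more abundant in RSD KO, also differed in content, with 85 of 6234 genes (1.36%) at least 2-fold higher and 39 (0.626%) at least 2-fold lower in RSD KO. *Pld5*, of the phospholipase D family, had 10 UMIs in Control KO and 312 in RSD KO, or 4.65 and 78.3 CPM, a log2 ratio of 4.07 (3.18 to 5.15). *Rorb*, a transcription factor of cortical layer IV neurons, was at 20.6, 40.6, 41.3 and 36.3 CPM in Control KO and 201, 104, 185 and 147 in RSD KO. The values did not overlap, and the log2 ratio was 2.35 (1.99 to 2.73). Both genes were also higher in the RSD pool of the WT pair, with 4.52 and 2.40. *Grik1*, a kainate receptor subunit, was at 1.62 (1.31 to 1.94), against -1.65 in the WT pair. *Fkbp5* was at 22.8 and 66.5 CPM with 1.55 (1.10 to 2.02). *Cfap52* and *Abi3bp* were lower with -2.60 (-3.20 to -2.03) and -2.41 (-3.06 to -1.79), and *Abi3bp* was at -1.27 after thinning. The 9 cortical markers, of which *Rorb* is a member, together had 1597 and 1808 CPM, and whether the cluster held the same kinds of neuron in both pools was not tested.

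Cortical excitatory-like nuclei had 20 of 4832 genes (0.414%) at least 2-fold higher and 47 (0.973%) at least 2-fold lower in RSD KO, and 33 genes past 2-fold without sublibrary 4. *Homer1* was at 235, 220.4, 328 and 278 CPM in Control KO and at 546, 614, 667 and 709 in RSD KO, without overlap, with a log2 ratio of 1.26 (1.11 to 1.42) and 1.09 in the WT pair. *Hsph1* was past 2-fold as well with 1.02 (0.53 to 1.53), and *Col23a1*, a transmembrane collagen, was at 14.1 and 75.3 CPM with 2.41 (1.80 to 3.08). *Kcnip1*, a partner of potassium channels, had 2.94 (2.57 to 3.34), but sublibrary 1 of RSD KO stood at 599 CPM against 92.4, 92.6 and 76.7 in the other 3, and without sublibrary 1 the ratio was 0.93. *Htr2c*, a serotonin receptor, and *Glis3*, a DG marker, were lower with -1.83 (-2.26 to -1.43) and -1.76 (-2.23 to -1.31). Leaving out sublibrary 4 gave -1.03 for *Glis3*, and leaving out sublibrary 1 gave -2.36. The 9 DG markers together had 539 and 240.0 CPM in these nuclei, 8 of 9 lower and 1 at 0 in both pools, and their part in the *Glis3* value was not tested.

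Cluster 10 had 9 of 4487 genes (0.201%) at least 2-fold higher and 8 (0.178%) at least 2-fold lower in RSD KO. *Smad3*, a mediator of TGF-beta, was at 1.05 (0.85 to 1.25) and *Bc1* at 1.41 (1.02 to 1.81), and *Fkbp5* was past 2-fold with 1.19 (0.80 to 1.59). *Npsr1*, the neuropeptide S receptor, was lower with -1.22 (-1.504 to -0.94), where the WT pair gave 0.36, and *Galntl6* with -0.93 (-1.06 to -0.81), but -0.13 after thinning. Cluster 9 had 18 of 5349 genes (0.337%) at least 2-fold higher and 28 (0.523%) at least 2-fold lower in RSD KO, and 29 genes past 2-fold without sublibrary 4. *Pdlim1*, a cytoskeletal adaptor, was at 20.5, 26.2, 22.0 and 17.3 CPM in Control KO and at 103, 87.7, 75.4 and 73.0 in RSD KO. It did not overlap between the pools, with 2.04 (1.60 to 2.50), and *Tcerg1l* had 1.57 (1.28 to 1.87). The WT pair gave 0.97 and 1.23 for them. *Pcsk1* was past 2-fold there too, with 1.40 (0.99 to 1.81), and *B130024G19Rik* and *Gm32647* were lower with -1.59 (-2.32 to -0.93) and -1.19 (-1.54 to -0.87). After thinning *Pdlim1* was at 1.11 and *Gm32647* at -0.57. Cluster 16, led by *Kcnh8*, had 6 of 3217 genes (0.187%) at least 2-fold higher and 27 (0.839%) at least 2-fold lower in RSD KO, and 21 genes past 2-fold without sublibrary 4. *Ddah1*, which breaks down methylated arginine, had 1.48 (0.90 to 2.07), *Bc1* 1.18 (0.77 to 1.58) and *Pcsk1* 1.13 (0.58 to 1.68), while *Ror1*, a Wnt receptor, had -1.42 (-1.82 to -1.04) and *Sorcs3* -1.25 (-1.66 to -0.87). Thinned nuclei gave 0.63 for *Bc1* and -0.55 for *Ror1*.

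Glial classes were small and held neuronal RNA, so their purity is given first. The neuronal markers *Syt1*, *Snap25*, *Rbfox3* and *Slc17a7* together had 1899 and 994 CPM in oligodendrocyte-like, 3609 and 2464 in OPC-like, 3484 and 2507 in astrocyte-like and 4791 and 4129 in microglia-like nuclei of Control KO and RSD KO. All 4 markers were lower in RSD KO in each of these classes, and none was at 0. Median depths of microglia-like nuclei were 6834 in Control KO and 1666 in RSD KO, and the share of these nuclei that was microglia-like again in a clustering of thinned nuclei was 34.5% in Control KO and 51.8% in RSD KO. For some genes ratios are therefore also given for nuclei with the same class in both clusterings, an alternative chosen after the data were seen. Beyond that the part of neuronal RNA in the glial ratios was not tested.

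Microglia-like nuclei had 302 of 4002 genes (7.55%) at least 2-fold higher and 37 (0.925%) at least 2-fold lower in RSD KO, the highest share in 1 direction of the 13 classes, and 168 genes past 2-fold without sublibrary 1. *Fkbp5* stood at 84.1, 98.8, 134 and 127 CPM in Control KO and at 669.6, 543, 516 and 812 in RSD KO, with a log2 ratio of 2.74 (2.49 to 3.00), 2.23 among nuclei with the same class in both clusterings and 1.36 in the WT pair. *Ccnd3*, a cyclin of the cell cycle, was at 44.2, 50.7, 100.3 and 36.3 CPM in Control KO and at 745, 543, 477 and 651 in RSD KO, with 3.73 (3.396 to 4.08), 2.83 among nuclei with the same class in both clusterings and 1.37 in the WT pair. For both genes the lowest RSD KO sublibrary was more than 3 times the highest of Control KO. *Per1* had 1.31 (0.76 to 1.85).

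All 7 measured of 10 homeostatic microglia genes were at least 2-fold higher in microglia-like nuclei of RSD KO, with a median of 1.57, against 0.06 over all genes of the class. *Csf1r*, the receptor that microglia need to survive, was at 107 and 319 CPM. *Cx3cr1*, *P2ry12*, *Sall1*, *Selplg* and *Siglech* had 1.82, 1.35, 2.04, 1.88 and 1.52. The list overlaps the 8 markers that named the class, which together had 649 and 2234 CPM, and among nuclei with the same class in both clusterings the median was 0.52. In the WT pair *P2ry12* was the lowest of the 7 at -1.26 and *Csf1r* the highest at 0.04. Control KO had the lowest level of the 4 IL-1R1 pools for each of the 7. *Csf1r* was at 275 CPM in Control WT and 283 in RSD WT. *P2ry12* was at 63.3 CPM in Control KO and 161 in RSD KO, and at 175 in Control WT and 73.0 in RSD WT. The part of the Control KO pool itself in these ratios was not tested. Monocyte and macrophage markers together had 24.1 and 102 CPM, with 4 of 6 higher and the other 2 at 0 in both pools. Of the 6, 3 were at 0 in Control KO.

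*Irak2* and *Tab2*, both in the pathway below IL-1R1, were at 1.77 (1.26 to 2.28) and 1.01 (0.64 to 1.38) in microglia-like nuclei, and at 0.84 and 0.58 among nuclei with the same class in both clusterings. *Rn7sk* was at 1.82 (1.53 to 2.11). No gene of the list of activated microglia and antigen presentation reached 100 UMIs. *Apoe*, a lipid carrier, had 7 UMIs in Control KO and 8 in RSD KO, or 3.76 and 12.8 CPM, with 1.77 (0.11 to 3.46). *B2m* had 5 and 17 UMIs with 3.34 (1.84 to 5.13), and *Lpl* had 10 and 1 UMIs with -1.75 (-7.19 to 1.065). *Htr2c* and *Mgat4c*, which neurons express, were lower with -1.90 (-2.94 to -1.01) and -1.22 (-1.42 to -1.02), and at -0.13 and -0.57 among nuclei with the same class in both clusterings.

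Oligodendrocyte-like nuclei had 30 of 1583 genes (1.9%) at least 2-fold higher and 91 (5.75%) at least 2-fold lower in RSD KO, or 59 genes past 2-fold without sublibrary 4. Beside *Zbtb16*, *Ikzf2*, a transcription factor, was at 49.1, 17.4, 103 and 68.1 CPM in Control KO and at 256, 289, 213 and 309 in RSD KO, without overlap, with 2.20 (1.59 to 2.86), 1.96 among nuclei with the same class in both clusterings and 0.40 in the WT pair. *Tsc22d3* (GILZ), a glucocorticoid target, was at 0.90 (0.40 to 1.42), and *Nr3c1* at -1.05 (-1.59 to -0.54). Of 10 measured of 11 myelin genes, 5 were higher, 5 lower and 0 past 2-fold. *Mobp* and *Mal* were at 0.74 (0.63 to 0.86) and 0.64 (0.33 to 0.95), with 0.73 and 0.70 in the WT pair, and *Ugt8a* and *Opalin* at -0.60 (-0.90 to -0.30) and -0.55 (-0.91 to -0.20), with -0.47 and -0.49 in the WT pair. *Mbp*, a major myelin protein, was at 0.11 (0.01 to 0.21), but at -0.10 after thinning and -0.21 among nuclei with the same class in both clusterings. *Nrg1*, which neurons express, was at -1.78 (-2.13 to -1.45), but at 0.36 among nuclei with the same class in both clusterings, and *Slc35f3* was at -2.08 and -0.73. *Mapk10*, the neuronal JNK3, was the single measured gene of IL-1 signalling, at -1.22 (-1.59 to -0.85).

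OPC-like nuclei had 77 of 2770 genes (2.78%) at least 2-fold higher and 72 (2.6%) at least 2-fold lower in RSD KO, or 55 genes past 2-fold without sublibrary 1. *Htra1*, a secreted serine protease (chr7:130537518-130587390, plus strand) that overlaps *Fgfr2* on the other strand, was at 36.4 and 178 CPM with 2.29 (1.72 to 2.88), and *Mertk*, a phagocytic receptor, at 41.9 and 181 CPM with 2.11 (1.56 to 2.67). *Fkbp5* was at 44.3 and 149 CPM with 1.75 (1.17 to 2.32). The WT pair gave 1.34, 1.09 and 0.79 for these 3 genes, all higher in RSD as well. *Nr3c2* was at -1.001 (-1.25 to -0.76), and *Adamtsl1* and *Gm32647* were lower with -2.38 (-3.47 to -1.47) and -2.11 (-2.83 to -1.48). Nuclei with the same class in both clusterings gave 2.42 for *Htra1*, 1.69 for *Mertk*, 1.84 for *Fkbp5*, -2.19 for *Adamtsl1* and -1.79 for *Gm32647*. *Il1rapl2* was at 1.61 (1.19 to 2.03), but sublibraries 1 to 4 of RSD KO had 473, 55.8, 0 and 209 CPM, and the ratio was -0.82 among nuclei with the same class in both clusterings. The 6 OPC markers together had 5051 and 9045 CPM, 6 of 6 higher.

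Astrocyte-like nuclei, 83 and 95 in number, had 23 of 1153 genes (1.99%) at least 2-fold higher and 28 (2.43%) at least 2-fold lower in RSD KO. Without sublibrary 1 there were 98 genes past 2-fold, and without sublibrary 4 there were 20. *Htra1* was at 309, 206, 252 and 198 CPM in Control KO and 517, 834, 969 and 750.3 in RSD KO, without overlap, with 1.54 (1.17 to 1.92) and 0.72 in the WT pair. *Lhfp* was at 1.52 (1.07 to 1.99), and -0.10 in the WT pair. *Unc5c*, a netrin receptor, and *Rtl4* were lower with -1.43 (-1.81 to -1.08) and -1.55 (-2.15 to -0.99). Nuclei with the same class in both clusterings gave 1.27 for *Htra1*, 1.06 for *Lhfp*, -1.11 for *Unc5c* and -1.27 for *Rtl4*, and *Rtl4* was at -0.66 after thinning. No gene of the reactive astrocyte list reached 100 UMIs, and *Gfap*, the filament protein of astrocytes, was at 58.7 and 63.8 CPM. Of the 10 genes of endothelial activation, 0 reached 100 UMIs in endothelial-like nuclei, and *Vcam1* had 0 UMIs in both pools.

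The WT pools share no nuclei with the KO pools, so their ratios stand as a separate pair. Among genes past 2-fold in the KO pair and measured in both, 9 of 16 had the same sign in the WT pair in DG granule-like, 15 of 23 in CA1-like, 20 of 23 in CA2/3-like and 17 of 29 in INH-like nuclei. Over all genes measured in both, the share with the same sign was 53.8%, 58.1%, 59.1% and 53.3% in those classes. In microglia-like nuclei 113 of 299 had the same sign, against 42.7% of all genes. Whether the pairs differed was not tested, since there is 1 pair per genotype.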

How the data were processed

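The authors deposited UMI counts per nucleus and gene, whole numbers without scaling, made from reads aligned to mm39 with the Parse Biosciences pipeline, and the study filtered nuclei in Seurat 4.1.1. Pools were taken from each file's label. Of the metadata, 11 columns per pool were not used. Nuclei over 20% mitochondrial UMIs were dropped (27 in Control KO, 71 in RSD KO). The 4 IL-1R1 pools were log-normalized and clustered (scanpy 1.11.5, leidenalg 0.10.2, 2000 variable genes, 30 components, 15 neighbours, resolution 1), which gave 26 clusters. Naming required 3 or more markers of the best class, each at 0.2 or more of its maximum over clusters, and more of that class's markers than of any other's among the 10 leading genes. This rule was set after cluster tables had been seen. Clusters with at least 100 nuclei in both pools and the 4 glial classes were compared. Doublets were kept in the main values, because the automatic limit of Scrublet marked 22.8% of Control KO and 0 nuclei of RSD KO. An alternative left out the 6% of nuclei with the highest scores.

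UMIs were summed per class and pool, with exact Poisson, Clopper-Pearson and conditional binomial intervals of 95% (scipy 1.17.1), which cover counting error only. The limit for a share of 0 is 3 counts. Genes with at least 100 UMIs over both pools were called at 2-fold. No p-value was computed, because each group is 1 pool of 3 mice. Genes were named by rule, as the 4 higher and 4 lower (2 and 2 outside hippocampal neurons) whose interval lies farthest from 0 and whose direction held in all 4 sublibraries, *Il1r1*, and of each gene list the 2 members with the most UMIs and those past 2-fold. Further list members were named after their values were seen. The classes, lists and rules were chosen with earlier results of these data known. Gene positions are those of GENCODE for mm39. The interval and ratio code was tested on simulated counts. Alternatives were thinning to 1000 UMIs, classes from thinned clustering, nuclei with the same class in both clusterings, a mitochondrial limit of 5%, removal of high doublet scores, median-of-ratios scaling, UMI minimums of 50 and 1, and each sublibrary left out. Values of some list members are not reported here.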

Additional observations from a re-analysis of the deposited data

Results flagged for a closer look

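In 2 of 28 groups of 4 sublibraries, the share of nuclei in 1 sublibrary stood apart from the other 3 by a larger part of the range than Dixon's 95% value, which chance passes in about 1 of 20 groups. The share of cluster 9 in Control KO was 5.60, 5.64, 5.63 and 6.20%, with a gap of 0.938 of the range. The share of cluster 16 in Control KO was 2.37, 3.15, 2.36 and 2.30%, with a gap of 0.914.

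For 6 of 81 shares and genes, every sublibrary of the KO pair went one way and every sublibrary of the WT pair the other. The genes had been named for the same direction in every sublibrary of the KO pair, so for them only the WT direction was open. Some would pass this rule with no difference between the genotypes. The share of all genes that pass it is not given, so the count is no separate evidence. The difference between the genotypes was not tested, since sublibraries divide 1 pool per group. The log2 ratio of RSD KO to Control KO was -0.707 for the CA2/3-like share and -0.133 for the INH-like share (0.004 in classes from thinned clustering), where the WT pair gave 0.16 and 0.54. These are shares of all nuclei, and thalamic excitatory-like nuclei were 20.9% of Control WT and 1.38% of RSD WT. Their part in the WT values was not tested. Within the 3 hippocampal excitatory classes the CA2/3-like ratio was -0.30 in the KO pair and 0.26 in the WT pair. Granule nuclei gave 1.521 for *Slc15a2* (-0.44 in the WT pair), 0.821 for *Cmss1* (-0.30) and -1.414 for *Lhfpl3* (0.14). In oligodendrocyte-like nuclei *Cmss1* had 1.472 (-0.65).

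The level of *Cmss1* also differed between sublibraries of different depth. Its level in DG granule-like nuclei was 1721, 3349, 3459 and 1624 CPM in sublibraries 1 to 4 of Control KO and 2875, 5345, 6488 and 3005 in RSD KO, higher in the shallow sublibraries 2 and 3 of both pools. Sublibrary 2 of Control KO and sublibrary 1 of RSD KO had median depths of 3429.5 and 4082 UMIs, and *Cmss1* stood at 3349 and 2875 CPM there. *Slc15a2* in the same sublibraries was at 13.8 and 45.8 CPM, and *Lhfpl3* at 210.1 and 50.4 CPM.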

How the results depend on the processing

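No paired analysis was possible because the 4 samples are sublibraries that each hold every pool, and each group is 1 pool. The shares of the 13 compared classes kept their direction under the alternatives tried, with the exception of the INH-like share at 0.004 in classes from thinned clustering. Classes from thinned clustering gave log2 ratios of -0.44 for the DG granule-like, -0.59 for the CA1-like, 1.42 for the cluster 5 and 1.26 for the microglia-like share, and nuclei with the same class in both clusterings, chosen after seeing the data, gave -0.47, -0.48 and 1.18 for the DG granule-, CA1- and microglia-like shares.

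The number of genes past 2-fold depended on the UMIs behind each gene. In nuclei thinned to 1000 UMIs, where fewer genes reach the minimum by construction, 6 were past 2-fold in DG granule-, 6 in CA1-, 4 in CA2/3-, 5 in INH-, 9 in oligodendrocyte-, 8 in OPC-, 5 in astrocyte- and 71 in microglia-like nuclei. With a minimum of 50 UMIs the counts in the same order were 117, 116, 182, 216, 256, 314, 118 and 659, and with 1 UMI in each pool 2800, 2888, 3208, 3071, 2755, 2972, 2585 and 3998.

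Classes from thinned clustering had 81 genes past 2-fold in CA1-, 106 in CA2/3-, 21 in oligodendrocyte-, 27 in astrocyte- and 73 in microglia-like nuclei. Nuclei with the same class in both clusterings had 24, 17 and 77 in the 3 glial classes, and without high doublet scores there were 198 in oligodendrocyte- and 134 in astrocyte-like nuclei. Leaving out each sublibrary gave 59 to 135 in oligodendrocyte-, 55 to 194 in OPC-, 20 to 98 in astrocyte- and 168 to 348 in microglia-like nuclei.

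The median of homeostatic microglia genes was 0.49 in classes from thinned clustering and 0.52 in nuclei with the same class in both. Over the sublibraries left out, the chaperone median was 0.25 to 0.48 in DG granule- and 0.24 to 0.43 in INH-like nuclei, the glucocorticoid median -0.26 to 0.59 in oligodendrocyte-like and the IL-1 signalling median -0.012 to 0.13 in CA1-like nuclei. Of 564 list medians under alternatives, 61 had the other sign. Among them were the clock median of OPC-like nuclei, at -0.40 in the main values and 0.58 in classes from thinned clustering, and those of INH- and CA2/3-like nuclei at 0.19 and -0.29 in thinned nuclei. In microglia-like nuclei the sublibraries left out gave clock medians of -0.26 to -0.055, against 0.081 with all 4, and glucocorticoid medians of -0.026 to 0.19. Named genes that turned direction were *Kcnip1* in cortical excitatory-like nuclei at -0.54 and *Nrg1* in oligodendrocyte-like nuclei at 0.36 in classes from thinned clustering, with 0.36 for *Nrg1* in nuclei with the same class in both. *Htr2c* in microglia-like nuclei was at 0.96 in thinned nuclei and 0.034 in classes from thinned clustering. The IL-1 signalling median of microglia-like nuclei was -0.94 in thinned nuclei, and the noncoding RNA median of astrocyte-like nuclei 0.076 in nuclei with the same class in both. The cause was not tested. The *Il1r1* ratio in granule nuclei kept its direction in 10 of 10 alternatives, and of 678 values of named genes 586 moved by less than their counting interval, 87 by more, and 5 turned direction. Another scaling moved no class median by over 0.1 on the log2 scale. Each group is 1 pool by design, so no replicate spread is known.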

Other observations

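Some genes differed one way in all cell types that measured them. Of 3146 genes measured in at least 10 of the 13 compared classes, 81 were higher in RSD KO in every class that measured them and 79 were lower, and the WT pair's median had the same direction for 37 of the 81 and 61 of the 79. These genes were chosen after their values were seen. All classes come from the same pair of pools, so agreement over classes is no separate evidence. The share with the same direction in the WT pair over all 3146 genes is not given here. *Bc1*, *Fkbp5*, *Cmss1*, *Gm47283* and *Rn18s-rs5* had median log2 ratios of 1.31, 0.80, 0.78, 0.74 and 0.66 over the classes, and the WT pair gave 0.02, 0.50, -0.30, 1.40 and 0.60. Among the lower genes, *Scarna2*, a small Cajal body RNA, had -1.01, with -1.17 in the WT pair. *Itga8*, an integrin subunit, *Chrna7*, the alpha-7 nicotinic receptor, and *Cdh9*, a cadherin, had -0.66, -0.61 and -0.59, with -0.11, -0.18 and -0.22 in the WT pair.

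*Bc1* was higher in shallow sublibraries of both pools. Its level in DG granule-like nuclei was 20.7, 24.9, 31.7 and 16.2 CPM in sublibraries 1 to 4 of Control KO and 48.1, 103, 84.5 and 57.7 in RSD KO. In sublibrary 2 of Control KO and sublibrary 1 of RSD KO, with median depths of 3429.5 and 4082 UMIs, it was at 24.9 and 48.1 CPM. The part of depth in the ratio of 1.64 was not tested further.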
